A study of Drosophila melanogaster with 2 samples.

Results

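Binding of CG15073 was examined at 37 genes for muscle proteins, actin and actin-binding proteins, chosen by name, out of 18164 annotated genes of the fly. The data are chromatin immunoprecipitation and sequencing (ChIP-seq) peaks from whole embryos of a transgenic line that carries CG15073 with a C-terminal eGFP tag, recovered with an antibody against GFP. The embryos were collected over 0 to 24 h with both sexes together. All data come from a single group of 2 biological replicates, numbered 3 and 4, from the same line, with no second condition to compare. Whole embryos hold every tissue at once, so binding in muscle and in other cells cannot be told apart. It also cannot be told apart whether few cells were bound strongly or many weakly.

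Actin filaments are built from actin monomers, which profilin and cofilin help to add and remove, and non-muscle myosin II pulls on them in nearly every cell. Muscle arranges actin, myosin, troponin and tropomyosin into repeating sarcomeres held together by giant scaffold proteins and by Z-disc proteins. In the fly embryo, body wall muscles form when founder cells fuse with fusion-competent myoblasts, under the transcription factor Mef2. The genes were therefore sorted by role. There were 9 broadly expressed cytoskeleton genes, 2 genes with products in both muscle and other cells (Tm1 and Actn), 20 sarcomere and muscle scaffold genes, 3 regulators (Mef2, nau and how) and 3 myoblast fusion genes (sns, kirre and rols).

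The authors' list of peaks that passed their irreproducible discovery rate (IDR) step holds 1445 peaks on the dm6 build. These are the 1445 strongest of the 23030 peaks in the relaxed list for both replicates pooled. Relaxed lists mix peaks with background by design, and each replicate's own relaxed list holds 30000. Strength is the authors' deposited signal value of each peak, whose scale is not stated, and it was used only to rank peaks within a list. In the IDR list it runs from 66.5 to 9689 with a median of 96.5. Read depth is unknown from these lists. A peak was given to a gene when its summit lay within 500 bp of one of the gene's start sites, or within the gene.

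Of the 37 genes, 9 held an IDR summit at a start site or in the gene body, which is 24.3% (exact Clopper-Pearson 95% interval 11.8 to 41.2), beside 9.36% of all 13945 protein-coding genes. They were Cortactin, sqh, ena, Tm1, bt, Msp300, sls, Mef2 and kirre. At start sites alone the count was 5 of 37, or 13.5% (4.54 to 28.8), beside 6.75% of protein-coding genes, a share that lies inside the interval. The genes were listed with earlier results of these data known, and the intervals cover the counting of genes only. The shares also differed by gene length. Of the 14 members of at least 20 kb, 7 held a summit (exact interval of the share 23.0 to 77.0%), beside 27.3% of all protein-coding genes that long. Of the 23 shorter members, 2 did, Cortactin and sqh, which is 8.70% (1.07 to 28.0) beside 7.95% of all shorter genes. The 9.36% for all lengths lay below the members' interval, whereas within each length class the background share lay inside the interval for that class. Length was split at 20 kb only, and its part in the difference was not tested.

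**Figure D1:**
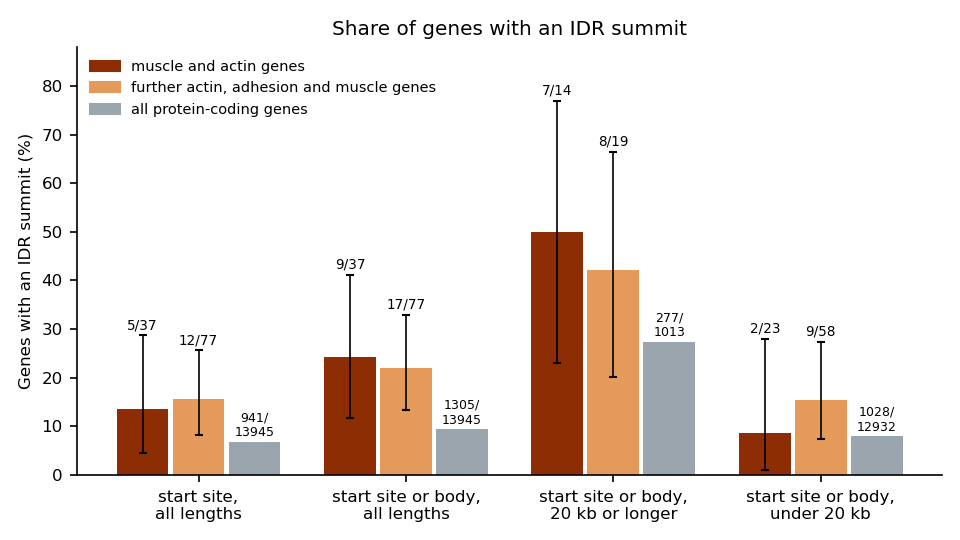
Percentage of genes with an IDR summit (y axis) by where the summit was counted and by gene length (x axis), for the 37 muscle and actin genes, 77 further genes of the same pathways and all protein-coding genes. Bars are shares, lines are exact 95% binomial intervals for the counting of genes, and fractions give genes with a summit over genes counted. The share is highest among long genes in each of the 3 groups, with 7 of 14, 8 of 19 and 277 of 1013 genes.

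Among the broadly expressed genes, 3 of 9 held an IDR summit (33.3%, interval 7.49 to 70.1), beside 9.36% of all protein-coding genes. By length it was 2 of 6 genes under 20 kb (4.33 to 77.7%), beside 7.95%, and 1 of 3 longer ones (0.84 to 90.6%), beside 27.3%. Each background share lay inside its interval. The strongest summit of all was at Cortactin, which encodes a protein that binds branched actin networks. Cortactin (FBgn0025865) is a gene of 2792 bp on the minus strand at chr3R:21061680-21064471. Its stronger summit lay at chr3R:21064553, 82 bp upstream of the start site used by 2 of its 4 annotated transcripts, in a peak at chr3R:21064373-21064748. The signal was 840.0 in the pooled list, rank 36, with rank 42 and a signal of 530.3 in replicate 3 and rank 33 and a signal of 302 in replicate 4. Both replicates placed it near the top of their lists, and by signal at a start site Cortactin was number 20 of the 941 protein-coding genes with such a peak. A second summit lay 199 bp further upstream at chr3R:21064752, in a peak at chr3R:21064547-21064956 that overlaps the first. The 2 were counted apart but may not be separate sites. The second had a pooled signal of 192 and rank 217. Its rank was 212 in replicate 3 (signal 121) but 1821 in replicate 4 (signal 26.5), so only replicate 3 held it among its 1445 strongest peaks. Relative to a start site of AnxB9, an annexin gene, the second summit stood at -489 bp, where a negative distance is upstream.

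The 2 Cortactin windows are printed because the proximal one carries the strongest summit of the set and the distal one adjoins it. They reach 100 bp to each side of the summits in RefSeq's Release 6 sequence, the assembly of dm6, read on the strand of the gene. The windows were chr3R:21064453-21064653 for the proximal summit and chr3R:21064652-21064852 for the distal one. Capitals mark matches to the motifs searched.
Cortactin proximal: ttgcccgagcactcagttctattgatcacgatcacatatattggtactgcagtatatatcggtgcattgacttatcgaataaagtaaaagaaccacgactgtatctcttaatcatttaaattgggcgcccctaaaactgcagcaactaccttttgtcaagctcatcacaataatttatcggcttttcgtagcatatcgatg
Cortactin distal: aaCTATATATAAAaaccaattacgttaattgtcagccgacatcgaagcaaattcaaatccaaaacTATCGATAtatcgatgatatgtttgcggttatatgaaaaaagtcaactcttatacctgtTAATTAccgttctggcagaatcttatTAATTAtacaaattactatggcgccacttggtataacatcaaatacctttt
The distal window held the DREF element TATCGATA, a site of the promoter factor DREF, and the homeodomain core TAATTA in 2 places. At one end it held a TATA box (TATAAA) that overlaps a MEF2 box, the binding consensus of the Mef2 factor. The proximal window, with the stronger summit, held no match to any of the 8 motifs.

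The second cytoskeleton gene with a start-site summit was sqh (FBgn0003514), which encodes the regulatory light chain of non-muscle myosin II. Its summit at chrX:6224371 lay in an intron, 149 bp downstream of an internal start site used by 1 of 5 transcripts and 769 bp from the first start site. The pooled signal was 120.5, rank 499, with rank 507 in replicate 3 (signal 74.3) and 717 in replicate 4 (signal 39.8). Both replicates held the peak among their strongest 1445. Of the 6 summits at the set's start sites it was the only one that lay downstream of the nearest start site of its gene. It also lay upstream of another start site of sqh, which stands 983 bp from the first. Replicate 3 placed its summit downstream of the start site nearest to it, whereas replicate 4 placed its summit upstream of the nearest one. The side therefore depends on the start site and the replicate chosen.

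Sarcomere genes held an IDR summit in 3 of 20 cases (15.0%, interval 3.21 to 37.9), beside 9.36% of all protein-coding genes. The 3 genes, bt, Msp300 and sls, were among the 5 sarcomere genes of at least 20 kb (interval of the share 14.7 to 94.7%), beside 27.3% of all genes that long. None of the 15 shorter ones held a summit (interval up to 21.8%), beside 7.95%, so both background shares lay inside the intervals. The gene bt (FBgn0005666), at chr4:724400-776474, encodes projectin, a titin-like kinase that links thick filaments to the Z-disc in insect muscle. Its summit at chr4:731669 lay inside coding sequence, 6011 bp downstream of the nearest start site of the gene. The pooled signal was 199, rank 207, with rank 217 in replicate 3 (signal 119.9) and 224 in replicate 4 (signal 77.4). The ranks were close in both replicates, and it was the only summit of the 11 in the set that lay in coding sequence. The pooled list held 16 further, weaker summits along bt, and the next strongest ranked 4800.

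Msp300 (FBgn0261836) encodes a nesprin, a nuclear envelope and Z-disc protein that positions muscle nuclei, at chr2L:5100877-5207002. Its summit at chr2L:5108177 lay in an intron, 335 bp upstream of an internal start site from which 2 of 11 transcripts begin. The pooled signal was 136, rank 399, with rank 407 in replicate 3 (signal 83.8) and 349 in replicate 4 (signal 59.5). The first start site of Msp300, 7300 bp away, had no IDR summit. A relaxed summit 204 bp downstream of it ranked 3390 in the pooled list, 23232 in replicate 3 and 1469 in replicate 4, so it was recorded near the strong end in replicate 4 only.

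The third, sls (FBgn0086906), encodes the titin-like protein Sallimus, which includes the kettin isoforms, at chr3L:2039681-2115611. All 13 annotated transcripts begin at the same start site, and the summit at chr3L:2115905 lay 294 bp upstream of it, outside the gene. The pooled signal was 102, rank 647, with rank 727 in replicate 3 (signal 60.6) and 645 in replicate 4 (signal 42.2). Along the rest of the gene, 75931 bp in all, the strongest relaxed pooled summit ranked 5619.

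Tm1 (FBgn0003721), at chr3R:15278220-15308779, encodes tropomyosin 1 in muscle and cytoplasmic forms. Its summit at chr3R:15281046 lay in an intron, 325 bp upstream of an internal start site used by 1 of 18 transcripts, with a pooled signal of 81.1 and rank 999. It was the only summit of the 11 without a partner in both replicates. Replicate 4 held it at rank 2945 (signal 23.0), and replicate 3 had no summit within 200 bp, the nearest being 238 bp away. A weaker pooled summit of Tm1 stood at -121 bp from the same start site (rank 2236), and the strongest replicate 3 summit of the gene, at -87 bp, had rank 843 (signal 56.2).

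The start-site windows of the remaining 4 genes are shown to set the promoters beside each other. They are chr2L:5108077-5108277 for Msp300 on the plus strand, chrX:6224271-6224471 for sqh on the minus strand, chr3L:2115805-2116005 for sls on the minus strand and chr3R:15280946-15281146 for Tm1 on the plus strand, with capitals as above.
Msp300: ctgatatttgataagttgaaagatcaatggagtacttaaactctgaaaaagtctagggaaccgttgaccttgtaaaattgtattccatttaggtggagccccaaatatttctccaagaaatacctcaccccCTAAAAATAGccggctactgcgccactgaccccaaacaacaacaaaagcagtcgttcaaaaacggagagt
sqh: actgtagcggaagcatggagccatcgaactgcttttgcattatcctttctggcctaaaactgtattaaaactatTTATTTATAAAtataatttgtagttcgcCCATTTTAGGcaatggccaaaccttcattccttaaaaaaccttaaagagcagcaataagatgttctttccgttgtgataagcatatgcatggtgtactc
sls: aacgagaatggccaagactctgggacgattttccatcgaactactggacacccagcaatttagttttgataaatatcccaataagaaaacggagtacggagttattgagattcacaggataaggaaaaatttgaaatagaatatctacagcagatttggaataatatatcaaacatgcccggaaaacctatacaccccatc
Tm1: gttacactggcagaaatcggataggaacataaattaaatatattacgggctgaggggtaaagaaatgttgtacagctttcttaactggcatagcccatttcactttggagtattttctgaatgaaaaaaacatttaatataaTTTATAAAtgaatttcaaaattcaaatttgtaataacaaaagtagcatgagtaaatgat
The Msp300 window held a MEF2 box apart from any other match, 31 to 40 bp downstream of its summit. The sqh window held a MEF2 box that overlaps 2 TATA boxes, and a CArG box, the consensus of serum response factor. The Tm1 window held the TATA box in 2 overlapping matches, on opposite strands, and the sls window held none of the motifs.

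Motifs were sought on both strands in the 11 windows of the set and in all 1445 IDR windows of the same length. The MEF2 box was in 4 of the 11 windows (Cortactin, Msp300, sqh and the weaker of the kirre summits), beside 13.1% of all IDR windows. The TATA box was in 4 of 11 (bt, Cortactin, sqh and Tm1), beside 34.3%. Each of 4 further motifs was in 1 window. They were the DREF element (1.31% of all IDR windows) and the homeodomain core (16.5%) at Cortactin, the CArG box (1.38%) at sqh and the CTCF core (AGAGGGCGC, AGATGGCGC, AGGGGGCGC or AGGTGGCGC, 2.77%) at Mef2. The GAGA motif GAGAGAG (4.22%) and the Twist E-box CACATG (6.78%) were in no window of the set. The median G and C content was 37.3% in the set's windows and 35.3% in all IDR windows. With 11 windows these are descriptions of letters and say nothing of which factor was bound.

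The start-site summits lay at unlike distances. Of the 6 at the set's start sites, 4 lay more than 200 bp upstream, between 281 and 335 bp, at Cortactin (the distal one), sls, Tm1 and Msp300. The proximal Cortactin summit and that of sqh lay within 200 bp. Over all protein-coding genes, 36.9% of 991 pairs of a gene and a start-site summit lay that far upstream and 58.5% lay within 200 bp. The median position was -287.5 bp in the set and -163 bp over all protein-coding genes. At 3 of these 5 genes, Msp300, sqh and Tm1, the start site nearest to the summit was an internal one used by 1 or 2 transcripts. The sqh and Tm1 summits each also had another start site of the gene within 500 bp. The difference in position was not tested, since it rests on 6 summits of named genes.

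**Figure D2:**
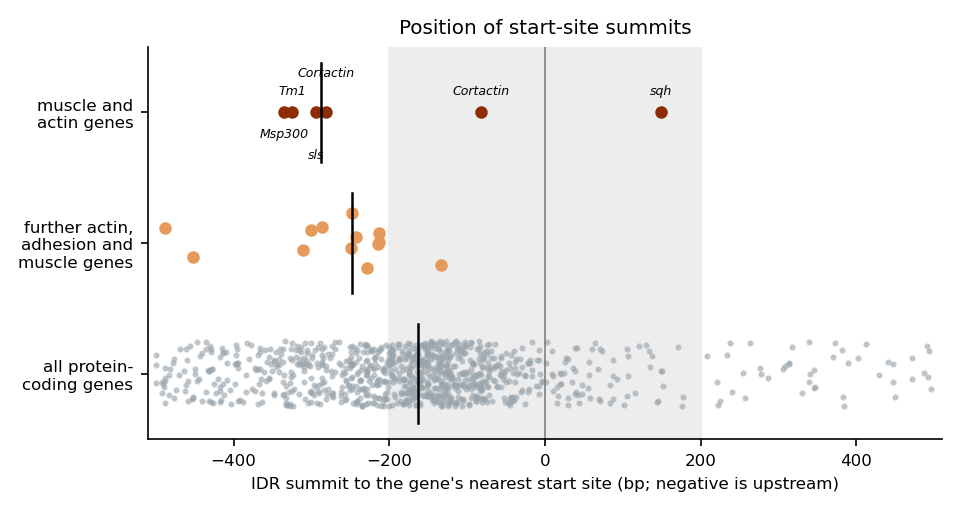
Distance in bp from each start-site IDR summit to the nearest start site of its gene (x axis, negative is upstream), for the 6 summits at muscle and actin genes, 13 at the further genes of the same pathways and 991 at all protein-coding genes. Each point is a pair of a gene and a summit, spread vertically for visibility in the lower 2 rows, black lines are medians and the grey band covers 200 bp to each side. The medians stand at -287.5, -248 and -163 bp.

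**Figure D3:**
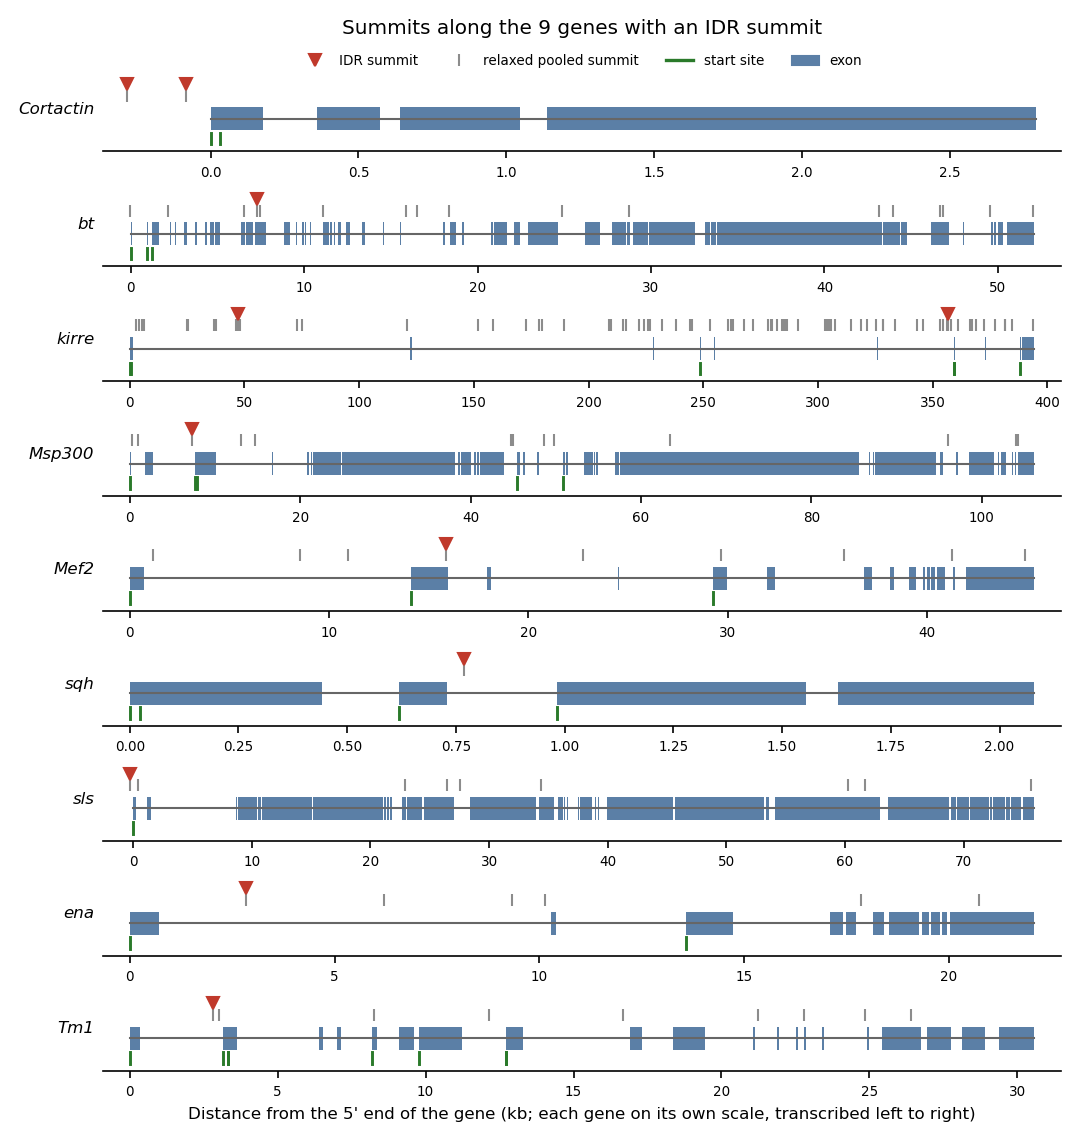
IDR summits (red), relaxed pooled summits (grey ticks), annotated start sites (green) and exons (blue) along the 9 genes with an IDR summit, with distance from the 5' end in kb on the x axis. Each gene has its own scale, and the thinnest exons are widened to be visible. The summits of Cortactin and sls lie before the gene, and the others lie inside it.

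The cytoskeleton gene ena, which encodes the Enabled actin polymerase, held its IDR summit in the gene body. At chr2R:19144458 it lay in an intron, 2826 bp downstream of the first start site and 88 bp upstream of the start site of lncRNA:CR43399, a long non-coding RNA gene. The pooled signal was 85.2, rank 911, with rank 1167 in replicate 3 (signal 46.5) and 940 in replicate 4 (signal 34.6). The summit counts for ena by position only, since the nearest start site is that of the non-coding gene.

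Of the regulators, Mef2 held an IDR summit and nau and how did not, which is 1 of 3 (interval 0.84 to 90.6%), beside 9.36% of all protein-coding genes. Of the 2 regulators of at least 20 kb, 1 held a summit (1.26 to 98.7%), beside 27.3% of all genes that long. Both background shares lay inside the intervals. Mef2 (FBgn0011656), the MADS-box factor of muscle differentiation, had its summit at chr2R:9942992, in annotated 5' UTR, 1772 bp downstream of an internal start site used by 1 of 11 transcripts. The pooled signal was 122, rank 487, with rank 459 in replicate 3 (signal 79.0) and 703 in replicate 4 (signal 40.3). For nau, the fly MyoD, the strongest pooled summit missed the IDR list by 27 places, at rank 1472 (signal 65.9), within the gene and 4237 bp downstream of the start site. Its strongest summits ranked 1297 in replicate 3 and 1691 in replicate 4. For how, an RNA-binding regulator of muscle and tendon, the strongest pooled summit ranked 3382, in the gene body.

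Of the fusion genes, kirre alone held IDR summits. All 3 are of at least 20 kb, and 1 of 3 (interval 0.84 to 90.6%) stands beside 27.3% of all genes that long, a share inside the interval. The gene kirre encodes the immunoglobulin-domain receptor of founder cells (Kirre, also called Dumbfounded) and spans 394149 bp, the longest gene of the set. The stronger summit, at chrX:3097198, lay in an intron 2352 bp upstream of an internal start site, with a pooled signal of 139.7 and rank 379. Replicate 3 ranked it 666 (signal 63.3) and replicate 4 ranked it 264 (signal 69.7). The weaker, at chrX:2787492, lay in an intron of kirre and inside CG32795, whose start site, 1830 bp away, was the nearest. It counts for kirre by position only, since the nearest start site of kirre was 46687 bp away. In the pooled list it had a signal of 66.9 and rank 1433, near the end of the IDR list. It ranked 1658 in replicate 3 and 2330 in replicate 4, outside the strongest 1445 of both. The pooled list held 77 summits along kirre, some of them inside other genes such as rst and CG32795. It held none along sns, which encodes the partner receptor of Kirre on fusion-competent myoblasts and spans 57603 bp. The replicate lists did hold summits at sns, the strongest at rank 20155 in replicate 3 and 3744 in replicate 4. For rols, an adaptor protein that acts with the receptor in founder cells, the strongest pooled summit ranked 1751 (signal 59.3). It lay in an intron and had rank 951 in replicate 3, while the strongest replicate 4 summit of the gene, at another place, had rank 1817.

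The remaining cytoskeleton genes had relaxed peaks only, and Act5C, the main cytoplasmic actin gene, came nearest to the list. Its strongest pooled summit stood at -471 bp from a start site with a signal of 58.6 and rank 1787. The gene's strongest summit had rank 4469 in replicate 3 and 1080 in replicate 4. An IDR peak lay just beyond it at chrX:5900188, 673 bp upstream of the gene and 199 bp from the start site of lncRNA:CR45668, with a signal of 136 and rank 400. In replicate 3 that peak had rank 549 and a signal of 71.8, and in replicate 4 it had rank 300 and a signal of 63.9. It stood among the 1445 strongest of both, and Act5C counts as unbound because of the 500 bp limit. The strongest pooled ranks of the others were 2422 for chic (profilin), 2728 for tsr (cofilin), 3272 for cher (filamin) and 7280 for zip (non-muscle myosin heavy chain). For Act42A, the other cytoplasmic actin gene, the rank was 22203. The replicate 4 list held no summit for chic or Act42A.

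Of the 6 actin genes, all under 20 kb, none held an IDR summit, beside the 7.95% of all protein-coding genes under that length, so a count of 0 among 6 is near the background. Besides Act5C and Act42A, the muscle actin gene Act87E had a pooled summit at -451 bp from a start site, with rank 4053 (signal 39.7). Its strongest summits had rank 3429 in replicate 3 and 6392 in replicate 4. Act57B, Act79B and Act88F had no pooled summit. In the replicate lists Act57B and Act88F appear in replicate 3 alone, at ranks 21611 and 25719, and Act79B in neither. The coding sequences of actin genes are nearly identical, so reads there may map to more than 1 gene. The sources used here do not say how such reads were treated, and their part in these ranks was not tested.

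The genes for muscle myosin, troponin, paramyosin and Tm2 held no IDR summit. All of them but Mhc are under 20 kb, where 7.95% of protein-coding genes held one. Mhc, the single muscle myosin heavy chain gene, had its strongest pooled summit at rank 8491 (signal 31.0), in the gene body. Of the light chains, Mlc2 had a pooled summit at rank 13426, and Mlc1 had no summit in any of the 4 lists used. Troponin T (up) had its strongest pooled summit at rank 10155, 58 bp downstream of a start site, and troponin I (wupA) at rank 15560. Of the troponin C genes, TpnC73F had one at rank 11173, whereas TpnC41C and TpnC47D had none in the pooled list. TpnC41C was listed in replicate 4 only (rank 5367) and TpnC47D in replicate 3 only (rank 9645). Tm2, which lies next to Tm1 on the chromosome and encodes a muscle tropomyosin, had its strongest pooled summit at rank 12793. Paramyosin (Prm) had its strongest at rank 6530. Of the Z-disc proteins, Zasp66 had its strongest pooled summit at rank 4469, Zasp52 at rank 6600 and Actn (alpha-actinin) at rank 4390. Unc-89, the obscurin gene annotated as Obsc, had no summit in any of the 4 lists.

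**Figure D4:**
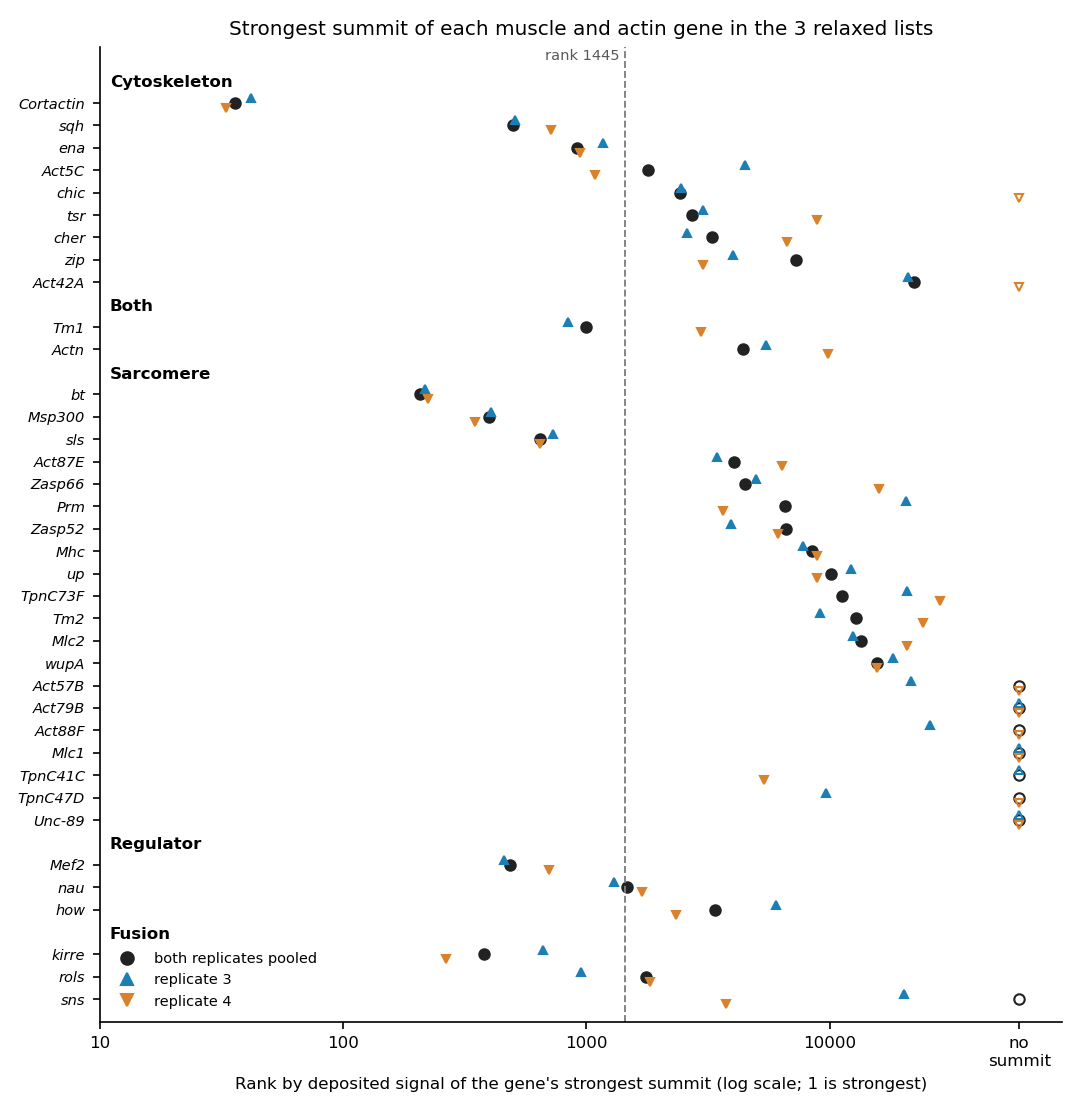
Rank of the strongest summit of each of the 37 genes in the pooled list (circles), the replicate 3 list (upward triangles) and the replicate 4 list (downward triangles), by deposited signal on a log scale where 1 is strongest. Open symbols at the right mean that the list held no summit for the gene, symbols of a gene are offset vertically for visibility, and the dashed line marks rank 1445. Only 9 pooled circles lie left of the line, 10 sarcomere genes lie to its right between ranks 4053 and 15560, and 7 have no pooled summit.

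In the pooled relaxed list, 29 of the 37 genes (78.4%; exact 95% interval 61.8 to 90.2) had a summit, beside 49.6% of all protein-coding genes. All 9 cytoskeleton genes had one, and 13 of the 20 sarcomere genes did. The median rank of the strongest pooled summit was 3272 over the 29 genes, 2422 over the 9 cytoskeleton genes and 6600 over the 13 sarcomere genes, beside 5880 over the 6923 protein-coding genes with a pooled summit. Median gene length was 11355 bp for the 37 genes, 4539 bp for the cytoskeleton and 7055 bp for the sarcomere genes, beside 2166 bp for all protein-coding genes. The part of length in these shares and ranks was not tested, nor was the difference in rank between the 2 roles. Counted per length, the set held 11 IDR summits at 9.26 per Mb of gene and flanks, beside 14.5 per Mb over all protein-coding genes. By role the density was 36.8 per Mb for cytoskeleton genes, from 4 summits of which 2 are those of Cortactin, and 7.05 per Mb for sarcomere genes, from 3 summits.

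The IDR list was made from agreement between these replicates, so recurrence in them is no separate support. Of the 11 IDR summits of the set, 9 were among the 1445 strongest peaks of replicate 3 and 8 among those of replicate 4, and 8 (72.7%) were among both, close to the 61.5% of all 1445 IDR peaks. Counted by gene, such a doubly recurrent summit was found at 8 of 37 (21.6%, interval 9.83 to 38.2), beside 6.25% of protein-coding genes. These are the 9 genes with an IDR summit without Tm1, and all but Cortactin and sqh are of at least 20 kb. The background share lies below the interval, and the part of length in this difference was not tested. The deposited −log10 q-value stood at its maximum of 3.24 for 8 of the 11 summits and was lower at ena, Tm1 and the weaker kirre summit.

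**Figure D5:**
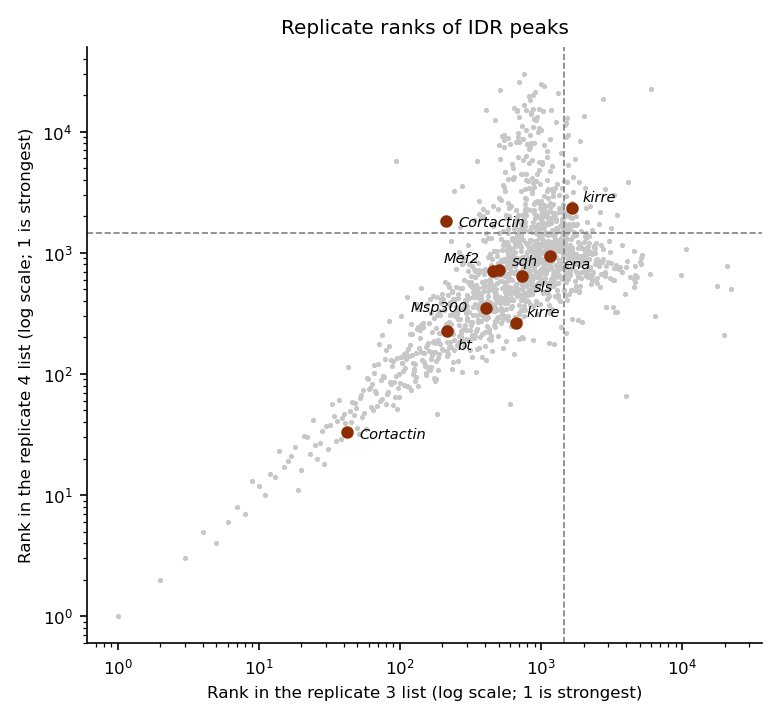
Rank of each IDR peak in the replicate 3 list (x axis) and in the replicate 4 list (y axis), both on log scales where 1 is strongest, for peaks with a summit within 200 bp in both lists. Brown points are summits of the muscle and actin genes, grey points are the other IDR peaks and dashed lines mark rank 1445. The second Cortactin summit and the weaker kirre summit lie above the horizontal line, and Tm1 is not drawn for want of a replicate 3 partner.

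Outside the 37 genes, 77 further genes, among them genes of actin nucleation, turnover, adhesion and myoblast fusion, were counted in the same way. An IDR summit lay at a start site of 12 of them, 15.6% (exact 95% interval 8.32 to 25.6). The 6.75% given above for all protein-coding genes lies below this interval. The 77 genes were chosen with earlier results of these data known. Their median length was 6585 bp, beside 2166 bp for all protein-coding genes. Counted at start sites or in the body, a summit was held by 8 of 19 genes of at least 20 kb, 42.1% (20.3 to 66.5), beside 27.3% of all genes that long. Of the 58 shorter genes, 9 held one, 15.5% (7.35 to 27.4), beside 7.95%. Both of these background shares lay inside the intervals. The strongest start-site summit was at Rac2, which encodes a Rac GTPase, at rank 5 (signal 4318), and Mtl had rank 110 (signal 309). The Rac2 summit lay 213 bp upstream of the start site, outside Rac2 and inside another gene, CG42458. The fliI gene, for the gelsolin-related protein Flightless, had rank 98 (signal 335), and the formin genes Fhos and DAAM had ranks 150 (signal 248) and 225 (signal 189). The myosin VI gene jar had rank 244, the paxillin gene Pax ranks 315 and 649, and Hem, of the SCAR complex, rank 642. The integrin gene mew had rank 793 and Moe, which encodes moesin, rank 1376. These start-site summits ranked 586 (mew) and 1508 (Moe) in replicate 3, and 8781 and 2965 in replicate 4. Both genes also held a stronger IDR summit in the body, at rank 787 for mew and 572 for Moe. At 4 of the 12 genes (fliI, Mtl, Hem and Arp3) the start site nearest to the summit was that of another gene. Arp3, an actin nucleation gene, is named here after its values were seen. Of the 13 start-site summits of these 77 genes, 12 lay more than 200 bp upstream.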

How the data were processed

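The 2 samples form 1 group, and their replicate numbers come from the labels. Peaks and background were listed by the authors for each replicate and for both together, and an IDR list was derived from these, per the deposited file descriptions. The deposited signal and −log10 q-value of each peak are the authors' values. The sources used here name no aligner, peak caller, IDR threshold or read depth. The labels name a possible control without saying what it is. The 4 lists on dm3 were not used.

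Genes and start sites came from the Ensembl release 115 annotation (BDGP6.54), without transposable elements, and sequence from RefSeq's Release 6 assembly, whose arm lengths cover all peaks and genes. Of the 37 names, 36 matched by symbol and 1 (Unc-89) by RefSeq synonym. A summit is the start of the peak plus its offset, written 1-based. Summits of different lists within 200 bp were taken as the same site, and summits of the same list were each counted. Windows reach 100 bp to each side. No test was run. The members, roles, further genes and motifs were chosen with earlier results of these data known. Genes were named by rule: each member with an IDR summit, the others by rank, and up to 10 further genes by start-site signal. All other members are named too, beyond the rule's 5 per role, so that each of the 37 is accounted for. Assignment of peaks to start sites was tested on simulated peaks, and assignment to gene bodies was not tested in this way. Python 3.11.15, pandas 2.3.3 and SciPy 1.17.1 were used. The alternatives were other distances, stronger or single-replicate lists, peak intervals and other roles for Tm1 and Actn.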

Additional observations from a re-analysis of the deposited data

How the results depend on the processing

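Of 43 alternatives for 8 values, 41 stayed within 1.5 times the reported value. The other 2 used a start-site distance of 200 bp, under which 2 members (Cortactin and sqh) in place of 5, and 1 further gene (mew) in place of 12, had a start-site IDR summit. Here most summits lie farther upstream than that limit. At 1000 bp Act5C joined the members. The single-replicate alternatives took the 1445 strongest peaks of 1 relaxed replicate list in place of the IDR list. With replicate 3 alone, 11 members held such a summit at a start site or in the body, where nau and rols joined. With replicate 4 alone it was 9, where Act5C joined and Tm1 was lost. Without kirre, a choice made after seeing the data, the members held 11.4 IDR summits per Mb. No paired analysis was possible because the series has a single group. Unknown read depth leaves the error of each signal unknown.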

Other observations

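Besides Act5C, 2 of the 28 members without an IDR summit had one outside the gene at under 5000 bp. The share of all protein-coding genes with such a summit was not counted, so this count has no background beside it. An IDR summit lay 2309 bp upstream of tsr (rank 1194, signal 73.8), 89 bp from a start site of sei, and ranked 747 in replicate 3 and 5776 in replicate 4. Another lay 3905 bp upstream of zip (rank 92, signal 349), 3808 bp from the nearest start site, that of uzip, and ranked 78 in replicate 3 and 133 in replicate 4. For the other 25 the nearest IDR summit lay farther away, up to 661621 bp at TpnC41C.

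Among the further genes, 5 held an IDR summit in the gene body only. They were ck, the myosin VIIa gene (rank 137, signal 265), mbc, which encodes the guanine exchange factor of myoblast fusion (rank 442, signal 128), sn, the fascin gene (rank 1152), Arp2 (rank 1176) and rhea, the talin gene (rank 1359).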
